A study of Mus musculus with 14 samples.

Results

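Of the 55291 genes in the count files, 10 that keratinocytes use late in their differentiation were followed through bulk RNA-Seq of the mouse esophagus. They were taken by gene symbol and not by a cut on their values, but with earlier results of these data known. They are Krtdap, Sbsn and Dmkn (secreted proteins), Cnfn (an envelope protein), Ly6d and Lypd3 (surface proteins with Ly6/uPAR domains), Tgm1 and Tgm3 (transglutaminases), and Evpl and Ppl (plakins). All 10 were found in every count file and passed the filter on low counts in both comparisons. The 14 samples came from 9 C57BL/6 mice, whose labels name no transgene or treatment. Peeled epithelium was sequenced from 5 aged mice of 18 months or more (O1, O2, O3, OF5 and OM8). It was also sequenced from 4 young mice of 4 months or less (Y1, Y3, YF5 and YM4). Stroma was sequenced from O1, O2 and O3 (3 aged) and from Y1 and Y3 (2 young). In the paper, the muscle layer was removed with forceps to give an epithelium-enriched mucosal layer. Its methods name stromal tissue without describing how it was taken. Each sample was the tissue of 1 mouse, so the spread described is between mice, and sex was labelled for only 3 mice.

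A stratified squamous epithelium renews itself from a basal layer, and its cells change what they make as they move towards the lumen. Late in that path, transglutaminases join glutamine and lysine side chains of small proteins into a cross-linked envelope under the plasma membrane, for which the plakins envoplakin (Evpl) and periplakin (Ppl) serve as an early scaffold tied to desmosomes and keratin filaments. Keratinocyte differentiation-associated protein (Krtdap), suprabasin (Sbsn) and dermokine (Dmkn) are secreted by suprabasal keratinocytes, and cornifelin (Cnfn) is a component of the envelope. In the mouse the esophageal surface is keratinized, and these genes are known as markers of its suprabasal and superficial cells.

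Sbsn, Dmkn and Krtdap lie next to each other on chromosome 7, on the plus strand, within 39627 bases (GRCm38, GENCODE M21). Sbsn runs from 30751471 to 30756134, Dmkn from 30763756 to 30781063 and Krtdap from 30787896 to 30791097, with 7621 and 6832 bases between them. Promoter windows from RefSeq (GRCm38.p6; 250 bases before and 50 after each start) were found for 7 of the 10 genes, in 10 windows. The AP-1 letters TGANTCA, read on both strands, were in 5 of these 10 windows and in 7.81% of all 32851 windows. The 5 windows belong to 3 of the 7 genes, which were the 3 neighbours. The 120 bases before each start, with the first transcribed base, are shown for these genes because they share these letters and a place in the genome, and capitals mark the AP-1 letters. All 3 windows of Dmkn held them, of which the first and the most downstream are shown. The window of Dmkn not shown overlaps the first and holds the same site.

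Sbsn, chr7:30751351-30751471, plus strand: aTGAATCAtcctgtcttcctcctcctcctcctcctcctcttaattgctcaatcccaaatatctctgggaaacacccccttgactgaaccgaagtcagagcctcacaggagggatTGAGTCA
Dmkn, chr7:30763636-30763756, plus strand: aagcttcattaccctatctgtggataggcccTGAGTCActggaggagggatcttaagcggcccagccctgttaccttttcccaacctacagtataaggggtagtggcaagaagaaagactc
Dmkn, chr7:30776285-30776405, plus strand: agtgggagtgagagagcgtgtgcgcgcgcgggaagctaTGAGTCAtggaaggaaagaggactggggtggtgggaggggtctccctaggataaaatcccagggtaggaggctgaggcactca
Krtdap, chr7:30787785-30787905, plus strand: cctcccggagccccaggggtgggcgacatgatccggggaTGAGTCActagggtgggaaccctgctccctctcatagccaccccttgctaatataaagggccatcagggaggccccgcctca

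Counted from the start, the letters stood at -81 to -75 in Krtdap, at -89 to -83 and -82 to -76 in the windows of Dmkn shown, and at -119 to -113 and -6 to 1 in Sbsn. TATAAA was in 2 of the 10 windows, those of Krtdap (-30 to -25) and Tgm3 (-28 to -23), and in 13.6% of all windows. AACCGG, part of the motif of grainyhead-like factors, was in 1 of the 10, that of Krtdap (12 to 17), and in 6.83% of all windows. These are matches of letters and carry no measurement of binding.

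The other genes lie apart from this cluster. Cnfn (25367620 to 25369724, minus strand) and Lypd3 (24636550 to 24641118, plus strand) are also on chromosome 7. Ly6d is on chromosome 15 (74762056 to 74763620, minus strand), Tgm1 on chromosome 14 (55700009 to 55713926, minus strand) and Tgm3 on chromosome 2 (130012349 to 130050399, plus strand). Evpl is on chromosome 11 (116220559 to 116238077, minus strand) and Ppl on chromosome 16 (5086291 to 5132421, minus strand). All 10 are protein-coding genes, and counts are sums over their exons. Of these, 3 share exon bases with a gene of low counts: Sbsn with Tmem147os (279 bases, 1 to 29 counts a sample), Lypd3 with the antisense gene Gm26550 (225 bases, 0 to 33 counts) and Tgm1 with the antisense gene Gm49067 (182 bases, 0 to 9 counts).

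The libraries were not of equal depth. Total counts were 8217516 to 21867101 in epithelium and 13257833 to 15644580 in stroma, but the 4 mice with epithelium only (OF5, OM8, YF5 and YM4, whose codes have another form) had 1042394 to 1433855 protein-coding counts against 7971284 to 11067322 in the other 5 epithelial samples. In these 4 samples a single ribosomal RNA gene, CT010467.1, took 63.9% to 73.9% of the counts, against 10.4% to 23.3% in the other epithelial samples and 1.47% to 1.88% in stroma. Skeletal muscle markers (Acta1, Ckm, Tnnt3, Mylpf, Myh4 and Ttn), summed, lay at 8.96 to 1249 normalized counts in epithelium and at 30823 to 58030 in stroma, and all 6 were lower in epithelium. All 5 basal and all 6 suprabasal epithelial markers were higher in epithelium, in which the sum of the suprabasal markers was 15902 to 51389 against 33.7 to 398 in stroma. Adipocyte markers (3 of 3) and endothelial markers (3 of 3) were lower in epithelium, as were 2 of 2 tested immune, 3 of 5 fibroblast and 2 of 4 smooth muscle markers, a count that was 0 without the stroma of O2 and 4 without that of Y1. Without the stroma of O1, all 4 immune markers were tested and all 4 were lower. The fibroblast marker sum was 229 to 521 in epithelium and 360 to 860 in stroma, with overlap. The smooth muscle marker sum also overlapped, at 331 to 835 in epithelium and 302 to 2048 in stroma.

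The first comparison set the peeled epithelium against the stroma. All 10 genes were higher in epithelium, by log2 fold changes of 5.47 (Ppl) to 7.999 (Tgm3), and in all 10 every epithelial sample lay above every stromal sample. Of all 16791 genes tested, 26.1% passed the test in that direction, 30.1% in the other, and 14.4% had no overlap with epithelium above. The median log2 fold change was 6.57 over the 10 genes and -0.05 over all genes tested, of which 2.35% were above a log2 of 5. Normalized counts here are CPM values, scaled to library sizes adjusted by the trimmed mean of M-values (TMM) over all 14 samples, and p-values came from the quasi-likelihood test of edgeR, adjusted by Benjamini-Hochberg over all genes, with a threshold of 0.05. In bulk tissue, fewer cells of a type and less RNA per cell cannot be told apart.

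**Figure D1:**
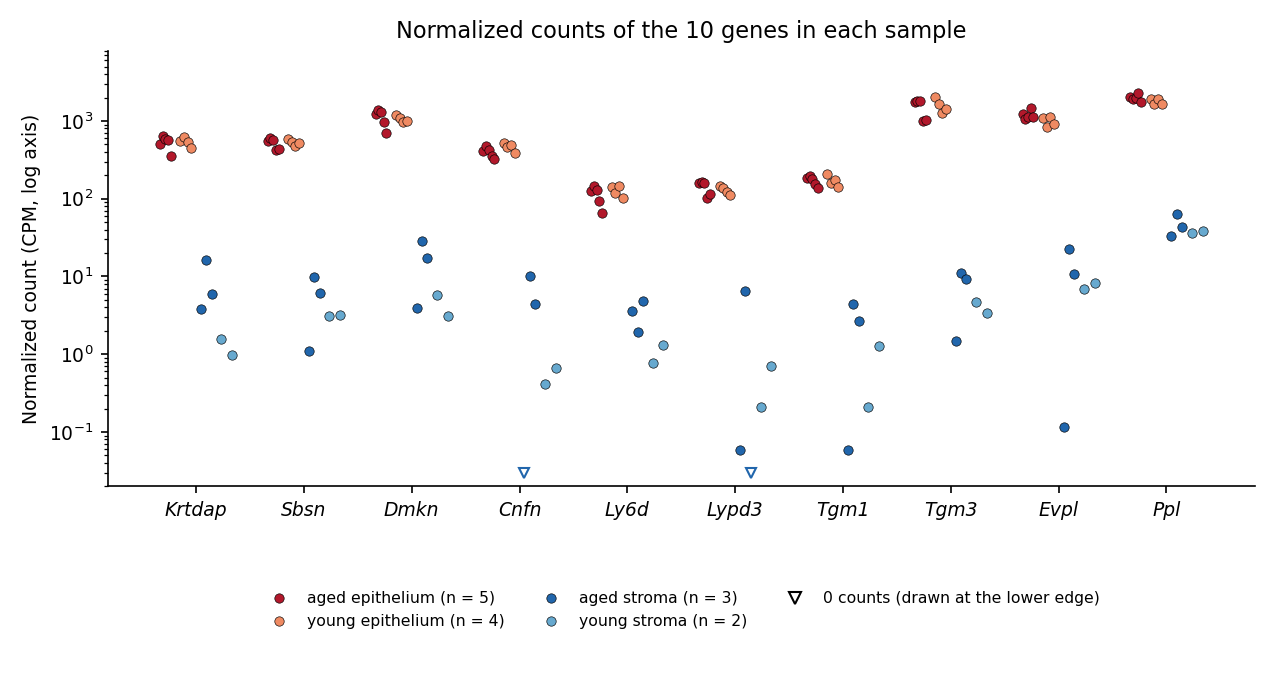
Normalized counts (CPM on TMM-adjusted library sizes, log axis) of the 10 genes in each of the 14 samples, colored by layer and age. In all 10 genes the 9 epithelial samples lie above the 5 stromal samples, and the open triangles are the 2 values of 0 counts, of Cnfn in the stroma of mouse O1 and of Lypd3 in that of mouse O3.

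Among the secreted proteins, Krtdap had 352 to 635 normalized counts in epithelium (median 546, n = 9). Its stromal values were 3.85 (O1), 16.4 (O2), 5.93 (O3), 1.55 (Y1) and 0.98 (Y3). The layers differed by a log2 of 6.54 (standard error 0.62, adjusted p = 5.94e-08 from edgeR), and the lowest epithelial sample, OM8, stayed far above the highest stromal one, O2.

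Sbsn lay at 428 to 599 normalized counts in epithelium (median 534, n = 9). In stroma it lay at 1.11 (O1), 9.98 (O2), 6.08 (O3), 3.10 (Y1) and 3.23 (Y3). For Sbsn the log2 fold change was 6.79 (standard error 0.45, edgeR adjusted p = 1.19e-10), and mouse O2 again had the highest stromal value. Dmkn, the most counted of these 3, spanned 696 (OM8) to 1367 (O2) in epithelium (median 1107, n = 9) and was 3.97 (O1), 28.7 (O2), 17.5 (O3), 5.78 (Y1) and 3.07 (Y3) in stroma. The difference of the layers was a log2 of 6.53 (standard error 0.57, edgeR adjusted p = 5.99e-09). In all 3 neighbours the lowest stromal level was in O1 or Y3 and the highest in O2.

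Cnfn, the envelope protein cornifelin, had 323 to 517 normalized counts in epithelium (median 423, n = 9). Stroma of O1 had 0 counts, which allows up to 0.175 normalized counts (3 counts), and the other stromal values were 10.1 (O2), 4.44 (O3), 0.41 (Y1) and 0.67 (Y3). The log2 fold change of 7.08 had a wide standard error of 0.98 (edgeR adjusted p = 2.10e-05), and its stromal values ranged from none to those of O2.

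Ly6d, a lipid-anchored protein of the Ly6 family, was among the least counted of the 10 genes. It lay at 65.5 (OM8) to 146 (O2) normalized counts in epithelium (median 124, n = 9) and at 3.62 (O1), 1.93 (O2), 4.78 (O3), 0.77 (Y1) and 1.30 (Y3) in stroma. The layers differed by a log2 of 5.57 (standard error 0.40, edgeR adjusted p = 7.48e-10). It was the only one of the 10 whose highest stromal value was not in O2, and Ly6d is also known from the B lymphocyte lineage. Raw counts of B cell genes were highest in the same stromal sample, O3: Cd79a had 398 counts there and 5 (O1), 75 (O2), 16 (Y1) and 101 (Y3) in the others, and 0 to 6 in epithelium. The light chain gene Igkc had 22700 counts in O3 and 175 to 2154 in the other stromal samples. O1, next to O3 in stromal Ly6d, had the lowest stromal counts of both Cd79a and Igkc. The other immune markers were also highest in the stroma of O3: Ptprc (32.5 normalized counts), Csf1r (33.6) and Cd3e (43 raw counts). Igkc was chosen after the values of Ly6d were seen, and the part of B cells in the stromal Ly6d was not tested.

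Lypd3, also called C4.4A, carries Ly6/uPAR domains as well. Its epithelial values were 103 to 163 (median 136, n = 9). Stroma had 0.06 (O1, 1 count), 6.49 (O2), 0 (O3, which allows up to 0.115), 0.21 (Y1) and 0.71 (Y3), so that O2 stood apart from the other 4. Its log2 fold change of 6.46 had the widest standard error of the 10 genes, 1.02 (edgeR adjusted p = 9.41e-05), and was 9.003 without the stroma of O2.

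The transglutaminases differed in level. Tgm1, the membrane-bound enzyme, had 139 to 208 normalized counts in epithelium (median 176, n = 9) and 0.06 (O1, 1 count), 4.44 (O2), 2.64 (O3), 0.21 (Y1) and 1.26 (Y3) in stroma. Its layers differed by a log2 of 6.60 (standard error 0.70, edgeR adjusted p = 8.08e-07). Tgm3, a soluble enzyme activated by proteolysis, had 997 to 2047 normalized counts in epithelium (median 1674, n = 9) and 1.46 (O1), 11.2 (O2), 9.18 (O3), 4.64 (Y1) and 3.35 (Y3) in stroma. With a log2 of 7.999 (standard error 0.54, edgeR adjusted p = 1.24e-10), or 256-fold (95% interval 118 to 556), it had the largest fitted difference of the 10 genes in this fit, though Lypd3 (9.003) passed it (8.34) without the stroma of O2.

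Both plakins were abundant in epithelium, and Ppl had the highest stromal counts of the 10 genes, although per kilobase of exon the stromal mean of Krtdap (8.44 normalized counts per kb) was above that of Ppl (6.25). Evpl had 846 to 1453 normalized counts in epithelium (median 1118, n = 9) and 0.12 (O1, 2 counts), 22.3 (O2), 10.9 (O3), 6.91 (Y1) and 8.31 (Y3) in stroma, a log2 fold change of 6.83 (standard error 0.74, edgeR adjusted p = 3.85e-07). Ppl had 1660 to 2295 in epithelium (median 1932, n = 9), and its stromal values of 33.5 (O1), 64.0 (O2), 43.2 (O3), 35.9 (Y1) and 38.8 (Y3) were the most even of the 10. Its log2 fold change was 5.47 (standard error 0.31, edgeR adjusted p = 1.09e-11), or 44.2-fold (95% interval 28.4 to 68.9).

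Leaving out the stroma of O2 moved the fold of 5 genes by over 1.5 times, always upwards: to a log2 of 7.42 for Krtdap, 7.15 for Dmkn, 8.21 for Cnfn, 9.003 for Lypd3 and 7.29 for Tgm1. No other single library moved the fold of one of the 10 genes that far, and all 10 passed the test without each library in turn. In a paired fit of the 5 mice with 2 layers, which blocks on mouse, the log2 fold changes were 7.39 for Krtdap, 7.36 for Dmkn, 8.43 for Cnfn, 8.23 for Lypd3, 7.36 for Tgm1 and 8.66 for Tgm3, and all 10 again passed. The size of the difference also varied with the age of the mice. Within aged mice and within young mice it was a log2 of 5.91 and 8.82 for Krtdap, 6.34 and 9.78 for Cnfn, 5.97 and 8.14 for Lypd3, 5.01 and 6.98 for Ly6d, 6.05 and 7.99 for Dmkn, and 6.14 and 7.88 for Tgm1. The values for Tgm3 were 7.66 and 8.72, for Sbsn 6.49 and 7.46, for Evpl 6.75 and 7.09, and for Ppl 5.41 and 5.65. All 10 were larger in the young mice, of which only 2 gave stroma, and the difference between the ages was not tested.

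**Figure D2:**
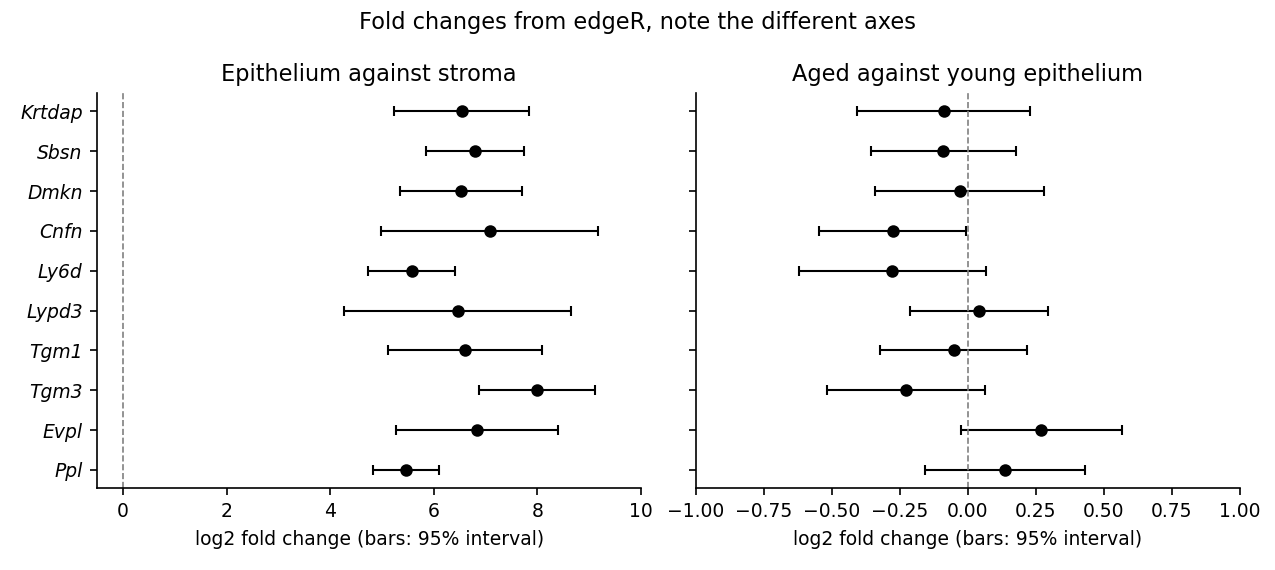
Log2 fold changes of the 10 genes from edgeR with 95% intervals (bars), epithelium against stroma on the left (9 against 5 samples) and aged against young epithelium on the right (5 against 4 samples, narrower axis). All 10 intervals lie above 0 on the left, and on the right only that of Cnfn does not cross 0, with a bound of -0.01.

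What was left of each gene in stroma was set against the epithelium of the same mouse. Over the 10 genes, the median level in stroma was 0.141% of the epithelial level in O1, 2.13% in O2, 1.05% in O3, 0.386% in Y1 and 0.563% in Y3. The superficial keratin Krt13 stood at 0.0762%, 0.887%, 0.365%, 0.123% and 0.0759% in these mice. Both were highest in O2, where 9 of the 10 genes had their highest stromal value, and carried-over epithelium was not tested as their source. Ppl kept at least 1.64% (O1) and up to 3.31% (O2) in every mouse, while Tgm3 kept 0.0825% (O1) to 0.617% (O2). Ppl also made up 36.5% to 70.2% of the summed counts of the 10 genes in the stromal samples (median 60.4%, n = 5), against 22.7% to 31.0% in epithelium (median 24.7%, n = 9). The stromal values of Krtdap were lower in both young mice than in the 3 aged mice, as were those of Ly6d. In all the other genes the stromal values of the ages overlapped. With 3 aged against 2 young stromal samples, such a separation is easily met by chance. The share of all genes with it was not computed, and the difference was not tested.

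**Figure D3:**
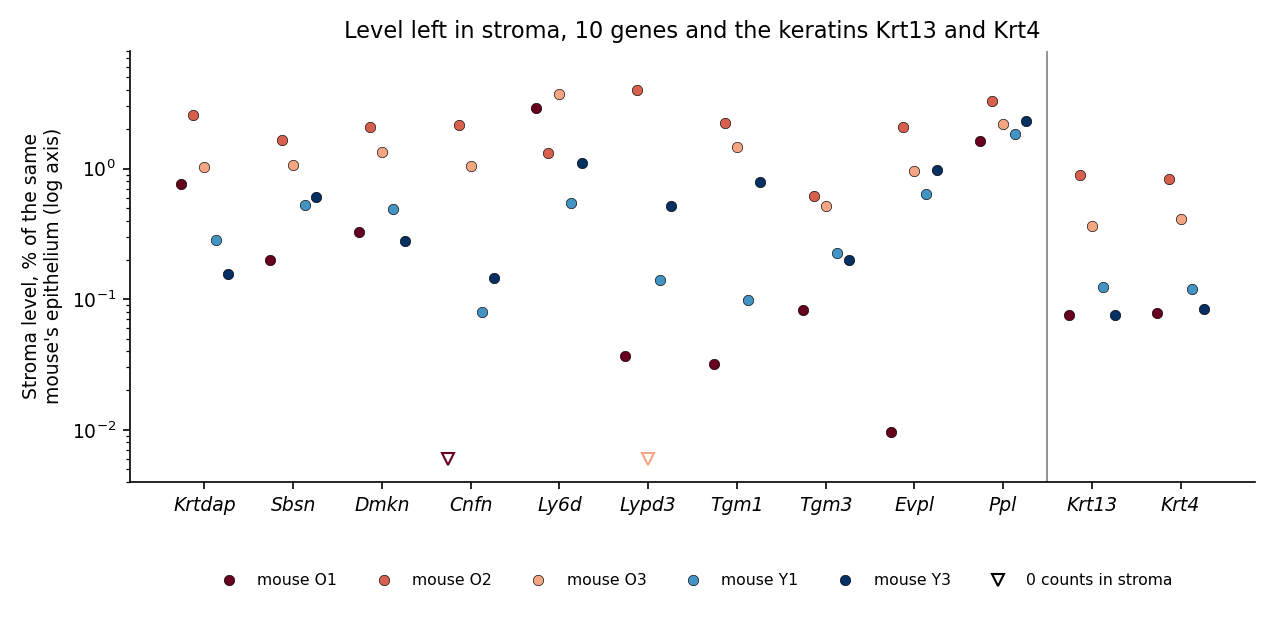
Level of the 10 genes and of the keratins Krt13 and Krt4 in stroma, as a percentage of the level in the epithelium of the same mouse (log axis), 1 point a mouse. Mouse O2 is highest for 9 of the 10 genes and for both keratins, Ppl lies above 1.64% in every mouse, and the points of O1 for Lypd3, Tgm1 and Evpl rest on 1, 1 and 2 counts.

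Together the 10 genes took 2.16% ± 0.379 (SD, n = 9) of the protein-coding counts in epithelium and 0.0271% ± 0.0167 (SD, n = 5) in stroma. Per kilobase of exon, the order of their mean epithelial levels was Krtdap (788 normalized counts per kb), Cnfn (595), Dmkn (497), Tgm3 (371), Ppl (276), Evpl (174), Ly6d (159), Sbsn (145), Lypd3 (81.6) and Tgm1 (54.3). The ranges of neighbours in this order overlapped except between Ppl and Evpl and between Sbsn and Lypd3. Within samples the order was firmer: Krtdap was above Cnfn, Dmkn above Tgm3, and Lypd3 above Tgm1 in 9 of 9 samples, whereas Evpl was above Ly6d in only 5 of 9. Tgm3 exceeded Ppl in 7 of 9.

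**Figure D4:**
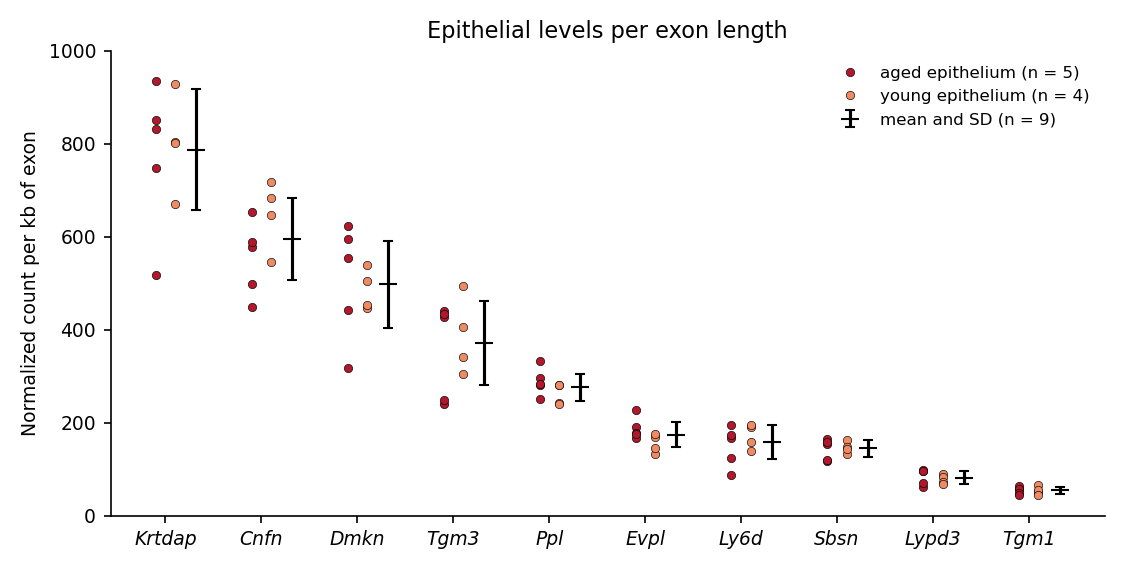
Epithelial levels of the 10 genes per kilobase of exon (normalized count per kb), points for the 5 aged and 4 young samples and bars for mean and SD over all 9. Krtdap leads with a mean of 788 and Tgm1 is lowest with 54.3, and the ranges of most neighbours overlap.

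Relatives and partners of the 10 genes were placed beside them from lists of known genes. Of the 11 transglutaminase substrates and envelope proteins, 10 were higher in epithelium and none lower (median log2 fold change 6.01). Sprr1b, a small proline-rich envelope protein, led with a log2 of 9.12, followed by Sprr3 (7.504) and repetin (Rptn, 7.41), and trichohyalin (Tchh) missed the threshold with 0.87 (edgeR adjusted p = 0.0634). Sprr genes are close copies of one another, and how reads shared between them were counted is not given in the sources used here. Rptn had 2225 to 7090 normalized counts in epithelium and 3.68 to 86.3 in stroma, with O2 highest there too. Without single stromal libraries, 9 to 11 of the 11 genes passed.

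The other transglutaminases did not follow Tgm1 and Tgm3 as a family. Of 6, 3 were tested: Tgm5, a further keratinocyte enzyme, was higher in epithelium by a log2 of 4.11 at 10.3 to 15.8 normalized counts, while Tgm2, the widely expressed tissue transglutaminase, was lower (-2.28), as was the coagulation factor subunit F13a1 (-1.02). Tgm2 had 19.6 to 37.2 normalized counts in epithelium and 108 to 141 in stroma, without overlap. Of the other plakins, desmoplakin (Dsp, log2 7.24) and epiplakin (Eppk1, 4.13) were higher in epithelium, plectin (Plec, -2.24) and dystonin (Dst, -2.08) lower, and Macf1 (0.26) did not pass. Dsp, which anchors keratin filaments at desmosomes, had 2174 to 3344 normalized counts in epithelium and 6.22 to 40.6 in stroma.

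Of the 25 other genes with Ly6/uPAR domains, 16 were tested, 10 higher in epithelium and 5 lower (median log2 fold change 3.01). The lower count was 3 without the epithelium of O1, O2, O3, Y1, Y3 or YF5, and copies within the Ly6 family may share reads. Lypd5 (6.99), Slurp2 (6.87) and Ly6g6c (6.24) were highest over stroma, and Lynx1 (-3.74), Cd59a (-2.98) and Plaur (-2.57), the urokinase receptor, lowest. Slurp2 had only 8.61 to 14.3 normalized counts in epithelium. Among 4 genes of the protease system that acts on transglutaminases, the protease inhibitor cystatin M/E (Cst6, log2 4.28) and cathepsin D (Ctsd, 1.31) were higher in epithelium, legumain (Lgmn, -1.72) was lower, and cathepsin L (Ctsl, 0.24) did not pass.

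The second comparison set aged against young epithelium, adjusted for the form of the code. None of the 10 genes passed the test, the adjusted p being 0.9996 for each from edgeR's quasi-likelihood test (5 aged, 4 young). Among all 15859 genes tested, 0.0126% passed, and 3.21% had an unadjusted p under 0.05, as did 1 of the 10 genes, Cnfn. The 10 log2 fold changes ran from -0.28 to 0.27, 7 below 0 and 3 above, with a median of -0.07 against -0.003 over all genes tested. The 95% intervals of the 10 genes together spanned -0.62 to 0.57, so that changes past a log2 of 0.62 in either direction lay outside all of them. DESeq2 likewise called none of the 10.

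On library sizes adjusted over the 9 epithelial samples, Cnfn had 313 (O1), 348.5 (O2), 319 (O3), 309 (OF5) and 271 (OM8) normalized counts in aged mice. In young mice it had 387 (Y1), 354 (Y3), 414 (YF5) and 348.0 (YM4). The groups overlapped only in O2 and YM4, and the means were 312 ± 27.7 (SD, n = 5) and 376 ± 30.8 (SD, n = 4). The log2 fold change was -0.28 (95% interval -0.55 to -0.01, unadjusted p = 0.0441, adjusted p = 0.9996 from edgeR). It was -0.18 within the 5 mice with both layers and -0.35 within the 4 with epithelium only.

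Evpl was the gene with the largest positive difference. Its values were 914 (O1), 792 (O2), 858 (O3), 1256 (OF5) and 946 (OM8) in aged and 813 (Y1), 645 (Y3), 943 (YF5) and 822 (YM4) in young epithelium, with overlap. Its log2 fold change was 0.27 (95% interval -0.03 to 0.57), 0.23 within the mice with both layers and 0.36 within the others. Ppl followed with 0.14 (-0.16 to 0.43), its highest value of 1984 being in OF5 and the other aged values between 1432 and 1537. The 5 other plakins lay at 0.09 to 0.24, each with a 95% interval that held both signs, and none passed the test. The median over all genes tested was -0.003.

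Ly6d, Dmkn and Tgm3 depended most on which mice were compared. Ly6d had 93.7 (O1), 108 (O2), 96.8 (O3), 80.1 (OF5) and 55.0 (OM8) normalized counts in aged and 106 (Y1), 90.1 (Y3), 122 (YF5) and 91.8 (YM4) in young epithelium. Its log2 fold change of -0.28 (-0.62 to 0.07) was 0.03 within the mice with both layers and -0.62 within the mice with epithelium only. In the latter it did not pass the test (edgeR adjusted p = 0.604). Tgm3 had a log2 fold change of -0.23 (-0.52 to 0.06), which was -0.06 and -0.37 in the same subsets. Dmkn, at -0.03 (-0.34 to 0.28) over all 9 mice, turned sign between them, with 0.17 and -0.22. Differences between the subsets were not tested.

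The remaining genes stayed closer to 0. The log2 fold change was -0.09 for Krtdap (-0.41 to 0.23) and -0.09 for Sbsn (-0.36 to 0.18). It was 0.04 for Lypd3 (-0.21 to 0.30) and -0.05 for Tgm1 (-0.32 to 0.22). The sample OM8 was the lowest of the 9 for 6 of the 10 genes, and without it the values of Krtdap and Dmkn turned to 0.03 and 0.10.

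No gene of the substrate, plakin, transglutaminase, Ly6/uPAR or protease lists passed the test by age under the filter on low counts used here. With no filter on low counts, Rptn passed (log2 fold change -0.65, edgeR adjusted p = 0.00743), whereas its edgeR adjusted p in the main fit was 0.848. Like Rptn, the marker genes Krt6a (-1.23), Col1a1 (-0.64) and Col3a1 (-0.72) passed there, and Col3a1 passed with DESeq2 (-0.69), all lower in aged epithelium. The fit with no filter called 36 genes, against 2 in the main fit. Among the 11 substrates, 5 had an unadjusted p under 0.05, all lower in aged epithelium (Sprr1b -0.53, Rptn -0.62, Sprr1a -0.43, Anxa1 -0.35 and S100a10 -0.36), with a median log2 fold change of -0.31 over the list. They were named for their unadjusted p after their values were seen. Marker sums by age overlapped for suprabasal markers (15902 to 46304 in aged and 24578 to 51389 in young epithelium) and skeletal muscle markers (8.96 to 693 and 49.2 to 1249) and fibroblast markers (229 to 375 and 345 to 521). Their part in these values was not tested.

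The form of the mouse code was also compared within epithelium. On the TMM scale every mouse with epithelium only lay below every mouse with both layers for 2 of the 10 genes, Lypd3 (89.1 to 102 against 104 to 121) and Tgm3 (862 to 1255 against 1276 to 1532), and for 9.16% of all genes. Scaled to protein-coding counts instead, the same held for 8 of the 10 genes, all but Evpl and Ppl, and for 29.1% of the protein-coding genes tested. The 10 genes accordingly took 1.67% to 1.96% of protein-coding counts in the mice with epithelium only and 2.36% to 2.56% in the mice with both layers. The share of Tgm3 within the summed counts of the 10, which depends on no scaling, was 13.5% to 21.1% in the former and 21.6% to 24.4% in the latter, while the shares of the other 9 genes, Lypd3 included (1.39% to 1.92% and 1.75% to 1.95%), overlapped. On the TMM scale the plakins leaned the other way, with overlapping values. Their mean levels were higher by a log2 of 0.30 (Evpl) and 0.19 (Ppl) in the mice with epithelium only. Scaled to protein-coding counts, their medians were lower in these mice, again with overlap: 2954 against 3187 for Evpl and 4783 against 5763 for Ppl. Their median shares of the summed counts of the 10 were higher in these mice, at 17.1% against 12.9% and 27.7% against 23.0%. The suprabasal marker sum was 15902 to 26068 in the mice with epithelium only and 39413 to 51389 in the others. The basal marker sum also did not overlap, at 1713 to 2475 in the mice with both layers and 819 to 1431 in the mice with epithelium only. These mice also had fewer protein-coding counts and more ribosomal RNA, as given above, and their part in the differences was not tested.

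The 10 genes did not vary as 1 unit among the epithelial samples. After subtraction of the mean of each form of code, Pearson's r of the log2 values ran from -0.44 to 0.94 over the 45 pairs (median 0.37, n = 9 samples), with 15 pairs above 0.5 and 9 below 0. Sbsn and Tgm3 had r = 0.94, Evpl and Ppl 0.93, Cnfn and Ly6d 0.89, and Ly6d and Tgm1 0.78. Evpl had r = -0.44 with Tgm3 and -0.40 with Sbsn. Krtdap had r = 0.73 with its neighbour Dmkn but 0.15 with Sbsn. The samples share the scaling by library size and differ in depth, so these values are descriptions. Several of them rested on OM8: without it, an alternative added after its low values were seen, the median r was 0.13 (n = 8 samples), with 9 pairs above 0.5 and 17 below 0. Krtdap then had r = -0.09 with Dmkn, -0.06 with Ly6d and -0.56 with Sbsn, and Dmkn and Ly6d fell from 0.77 to 0.13. The pairs of Evpl and Ppl (0.99), Sbsn and Tgm3 (0.92), Cnfn and Ly6d (0.82) and Ly6d and Tgm1 (0.72) stayed high.

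**Figure D5:**
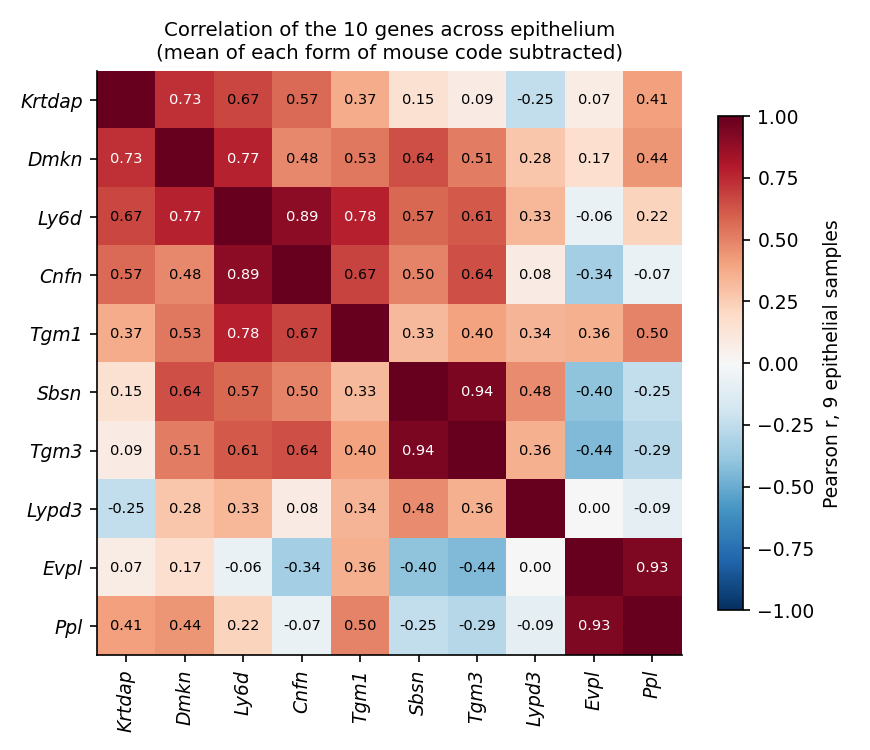
Pearson's r of log2 normalized counts between the 10 genes over the 9 epithelial samples, after subtraction of the mean of each form of mouse code; red is positive and blue negative. Evpl and Ppl (0.93) and Sbsn and Tgm3 (0.94) form the closest pairs, and the values between these pairs are negative.

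Among 1470 other genes that reached an average log2 CPM of 5, those closest to the mean pattern of the 10 genes over the 9 epithelial samples were Atp5d (r = 0.98), AI661453 (0.97), Pinlyp (0.97), the pseudogene Rps16-ps2 (0.95) and P4hb (0.95). Picking the highest r among 1470 genes over 9 samples favours high values. The mean pattern rests in part on OM8, the lowest sample for 6 of the 10 genes, and the ranking was not repeated without it. Pinlyp, another gene with a Ly6/uPAR domain, was also higher in epithelium than in stroma by a log2 of 6.71, and AI661453 by 5.38, whereas Atp5d was lower by a log2 fold change of -0.54.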

How the data were processed

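Whole-number counts per gene, not normalized, were deposited by the authors for each of the 14 samples. Total RNA had been enriched for mRNA with oligo(dT), and reads were aligned to GRCm38.p6 with Rsubread and counted with featureCounts. The annotation release, strand setting and handling of multi-mapping reads are not given in the sources used here. Gene positions came from GENCODE M21, which held 53292 of the 55291 symbols. The members and lists were chosen with earlier results of these data known. The test was the quasi-likelihood test of edgeR 4.0.16 (R 4.3.3; filterByExpr with a minimum count of 10, TMM, estimateDisp, glmQLFit with robust estimation), and standard errors were the log2 fold change over the square root of F. Epithelium was compared with stroma over 14 samples, and aged with young over 9 epithelial samples, adjusted for the form of the code. Named list genes were up to 3 called genes per direction with the largest fold change, with cell type markers and the 5 genes of most similar pattern. Correlations used log2(value + 0.5). No replicate pair agreed within sampling noise (20 pairs, lowest chi-square per degree of freedom 9.94). The 2 layers of a mouse pair by animal, and their deviations from group means correlated weakly (r = 0.06 to 0.11). Y1 and Y3 have the same r by construction, as deviations from a mean of 2 mice mirror each other. A floor is 3 counts, and intervals at 95% and floors cover counting error or the spread between mice only. The alternatives were DESeq2 1.42.0, upper quartile scaling, other filters, sample subsets, blocks and each library left out, and the procedure was tested on simulated counts. Single-cell data were not analysed here.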

Additional observations from a re-analysis of the deposited data

Results flagged for a closer look

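Of 40 combinations of gene and group examined for a sample far from the others, 1 was flagged. Chance flags about 1 in 20 groups of this size, so 1 flag is not more than chance gives. Ppl in the epithelium of the aged mouse OF5 had a log2(normalized count + 0.5) of 10.95 (1984 normalized counts), against 10.48 to 10.59 in the other 4 aged mice, and its gap to the nearest of them was 0.783 of the range of the group. OF5 is one of the 4 libraries with few protein-coding counts and much ribosomal RNA, whose part in this value was not tested.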

How the results depend on the processing

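Between epithelium and stroma, all 10 genes passed the test under every alternative except the filter of at least 10 counts in every sample, which tested 6 of them (Cnfn, Lypd3, Tgm1 and Evpl fell under it) and called 6, and which called 4316 of 6711 genes against 9441 of 16791 in the main analysis. Without single libraries, 8827 to 10093 genes were called. The mouse block called 8689 of 22771 genes, and the same mice without it 9400. Upper quartile scaling and DESeq2 called 9503 and 10114.

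Between aged and young epithelium, none of the 10 genes passed under any of the 19 alternatives, and no covariate, scaling or block changed that. All genes called numbered 2, and 28 with DESeq2, 36 with no filter, 0 with no covariate (238 at an unadjusted p under 0.05), 4 in the mice with both layers, 1 in the mice with epithelium only, and 0 to 3 without single libraries (0 without young mouse Y1, with 609 at an unadjusted p under 0.05). The sign of small log2 fold changes turned: Krtdap ranged from -0.225 to 0.0324, Dmkn from -0.0934 to 0.0966, Lypd3 from -0.00379 to 0.0819 and Tgm1 from -0.138 to 0.0144 without single libraries. Within the mice with both layers, Sbsn came to 0.0320, Ly6d to 0.0270, Dmkn to 0.169 and Tgm1 to 0.0158, and Lypd3 came to -0.0569 within the mice with epithelium only. Dmkn was 0.0138 with no covariate. The replicate number, used as a block in 6 mice, gave 2 calls and none of the 10 genes, with Dmkn at 0.0953. Same-numbered mice correlated by 0.15 to 0.27 around age means but by -0.14 to -0.01 within the form of code, and they are different animals. These reversals were of values that did not pass the test, and their cause was not tested.

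The share of protein-coding counts in the 10 genes, 2.16% in epithelium, was 0.809% of all counts, a denominator that includes ribosomal RNA. Depth limits the 4 mice with epithelium only, in which 3 counts equal up to 1.25 normalized counts, and stromal values of 1 or 2 counts (Lypd3, Tgm1 and Evpl in O1) lie under that floor of 0.175.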
